A study of Drosophila melanogaster with 12 samples.

Results

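The small ribosomal subunit of Drosophila melanogaster is built from 1 ribosomal RNA and a set of proteins that are encoded by the RpS genes and by stubarista (sta), the gene of the protein also called RpSA. Its mRNAs were examined in S2 cells, an embryonic line with features of macrophage-like blood cells, after depletion of porthos. The members were all genes with a FlyBase symbol of RpS followed by a digit, without kinases, plus sta. The rule gave 39 genes in the annotation, of which 37 had their identifier among the 17023 of the count files. RpS10b and RpS12 matched no identifier and were not analysed here. Of the 37, 35 passed the filter on low counts and were tested, and RpS28a and RpS28-like, with at most 2 counts and 1 count in any library, did not.

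The small subunit binds the initiation factors and the start tRNA, scans the mRNA for a start codon and reads the codons during elongation. Its head and its body move relative to each other, and the mRNA passes between them. In animals, ribosomal protein mRNAs commonly begin with a run of pyrimidines, and their recruitment to polysomes is regulated together. Porthos (CG9253, symbol pths) is a DEAD-box RNA helicase, and its yeast relative Rrp3 acts in making the ribosomal RNA of the small subunit.

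There were 4 groups of 3 libraries. They held polysome RNA from cells given dsRNA against porthos, polysome RNA from cells given dsRNA against GFP, input RNA from cells given porthos dsRNA, and input RNA from cells given GFP dsRNA, a sequence foreign to flies. Each treatment used 1 µg of dsRNA, with a passage after 48 h and a harvest 3 days later. All cells met cycloheximide, which holds ribosomes on mRNA, at 100 µg/ml for 3 min before lysis. Input was 20% of a lysate, and polysomes came from a gradient of 10 to 50% sucrose. RNA came from TRIzol for input and from phenol and chloroform for polysome fractions, so input and polysome libraries also differ in extraction. Poly(A) selection was shared by all.

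Libraries held between 7559406 and 11918941 counts. Polysome porthos replicate 3 detected 10377 genes, against 11485 to 11864 in each of the others, and stood apart on the second principal component at -41.7. porthos mRNA checked the labels: on polysomes it had 113, 141 and 93.7 CPM (counts scaled for library size) with porthos dsRNA, against 326, 321 and 314 CPM with GFP dsRNA, and in input 106, 108 and 95.8 CPM against 220.2, 226 and 222 CPM. The 8 hemocyte-like markers of the line summed to 1558 to 1841 CPM in porthos input and to 1474 to 1709 CPM in GFP input, while the hemocyte gene NimC1 stayed at or below 1.14 CPM in every library. Within that list Hml had 96.3 ± 13.2 CPM in porthos input and 48.1 ± 3.17 in GFP input (SD, n = 3 each), Pxn 48.7 ± 5.61 and 21.4 ± 2.41, and eater 36.0 ± 2.27 and 18.8 ± 0.872, all 3 called higher with the groups apart in input and on polysomes. The list did not rise as a whole in input. Its sums on polysomes were 1121.4 to 1303 CPM with porthos dsRNA and 967 to 1121.2 CPM with GFP dsRNA, barely apart. In input, crq lay lower with the groups apart, at 218 ± 1.99 CPM with porthos and 238 ± 8.17 with GFP dsRNA. The input groups of Col4a1, vkg and srp overlapped. The germline gene bam had 17.6 ± 2.16 CPM in porthos input and 10.6 ± 0.628 in GFP input, and 15.2 ± 3.33 CPM on porthos polysomes and 9.33 ± 0.530 on GFP polysomes, again called higher with the groups apart. The part of these markers in the results was not tested. The neuronal gene elav was at 122 to 135 CPM in porthos input and at 129 to 150 CPM in GFP input, and the 3 muscle genes summed to at most 5.10 CPM and the 3 fat body genes to at most 2.45 CPM in any library.

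The members lie on chromosomes 2L (6 genes), 2R (7), 3L (3), 3R (12), 4 (1) and X (8). They are short genes, with a summed exon length of 304 to 1864 nt (median 865) and a 5′ UTR of 26 to 578 nt (median 83). snoRNA genes, which guide modification of ribosomal RNA, lie inside 12 of them, 41 in all, of which RpS5a holds 14. Exons of 6 members overlap those of an opposite-strand gene, and exons of 3 those of a same-strand gene. They include RpS15, RpS20, RpS28b, RpS29 and RpS9 on the opposite strand, and RpS27A, RpS28-like and RpS6 on the same strand. How the authors' counting treated them is not given in the sources used here, so counts of these 9 genes are uncertain to that extent.

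Levels were compared between genes per length of exon, and 31 of the 35 tested members lay between 301 and 3517 CPM per kb in GFP input. RpS27A, whose protein is made as a fusion to ubiquitin, had 3225 ± 220 CPM per kb of exon in porthos input and 3517 ± 144 in GFP input (SD, n = 3 each). RpS23, a protein of the decoding centre, had 3463 ± 23.6 in porthos input and 3361 ± 15.5 in GFP input. RpS30, which is made as a fusion to a ubiquitin-like protein, followed with 2713 ± 252 in porthos input and 2494 ± 100.3 in GFP input, and RpS29, a zinc-binding protein of the head, with 1906 ± 33.6 and 1841 ± 11.2. The lowest of these 31 was RpS21, at 344 ± 22.0 CPM per kb in porthos input and 301 ± 15.5 in GFP input. Below it came only second copies of duplicated genes.

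**Figure D1:**
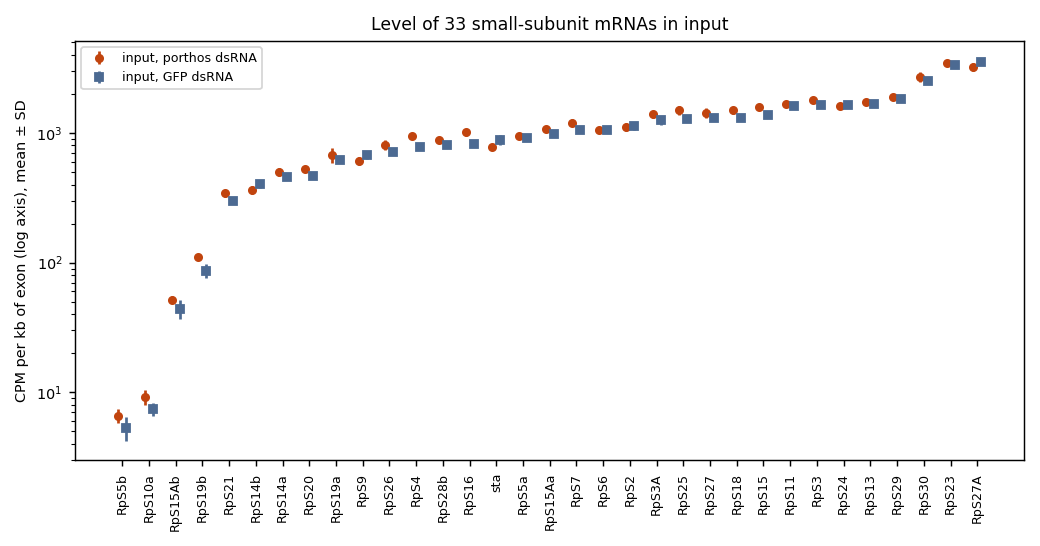
Level of 33 tested small-subunit mRNAs in input (mean ± SD of CPM per kb of exon, n = 3 libraries a group, log axis), ordered by the level with GFP dsRNA; circles are porthos dsRNA and squares GFP dsRNA. RpS5b, RpS10a, RpS15Ab and RpS19b sit below all others drawn, and RpS23 and RpS27A are at the top.

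These 4 low mRNAs come from RpS5b, RpS10a and RpS19b, which are known mainly from gonads, and from RpS15Ab. RpS5b had 6.60 ± 0.784 CPM per kb in porthos input and 5.32 ± 1.12 in GFP input, and RpS10a had 9.20 ± 1.25 and 7.40 ± 0.860. RpS15Ab had 51.9 ± 3.21 in porthos input and 44.1 ± 7.07 in GFP input, and RpS19b 111 ± 5.74 and 86.7 ± 10.7. Within each pair of copies, the share of the minor copy was small except for the RpS14 pair, whose genes are neighbours on chromosome X and encode the same protein. RpS14b held a mean of 33.0% of the counts of RpS14a and RpS14b in porthos input and 37.6% in GFP input. RpS15Ab held 3.58% of its pair in porthos input and 3.31% in GFP input, RpS19b 8.12% and 6.98%, and RpS5b 0.474% and 0.397%. Copies of a pair have similar sequences, and how reads that fit both were counted is not given, so these shares are uncertain.

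The summed level of all 37 members was slightly higher in porthos than in GFP input and did not separate the treatments on polysomes. In input the sums were 37558, 39442 and 38418 CPM with porthos dsRNA, against 36216, 36693 and 35612 CPM with GFP dsRNA. These groups did not overlap. On polysomes the sums were 34897, 40924 and 33070 CPM with porthos dsRNA, against 43690, 38511 and 33260 CPM with GFP dsRNA. The polysome groups overlapped, and each spread more widely than either input group. As a share of all counts, the members took 3.66, 3.76 and 3.69% in porthos input and 3.48, 3.51 and 3.45% in GFP input. On polysomes the shares were 3.57, 4.19 and 3.38% with porthos dsRNA and 4.55, 4.01 and 3.57% with GFP dsRNA. In such bulk libraries fewer cells of a type and less of an RNA per cell cannot be told apart, and every level is relative to the other mRNAs of its library.

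**Figure D2:**
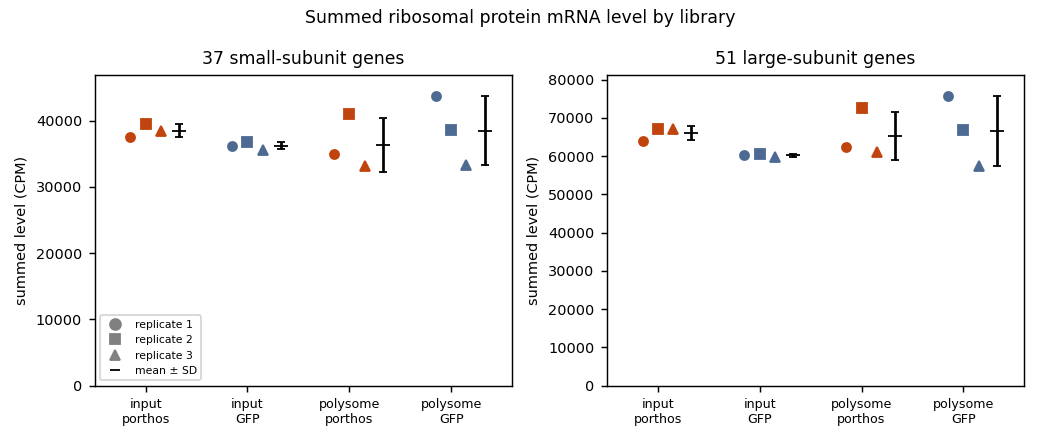
Summed level in each library (CPM; markers are replicates 1 to 3, black bars mean ± SD, n = 3) of the 37 small-subunit genes, left, and of 51 large-subunit genes, right. In both panels the 3 porthos input libraries lie above the 3 GFP input libraries, while the polysome groups overlap and share the same high libraries, porthos replicate 2 and GFP replicate 1.

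The spread on polysomes was shared by nearly all members. Of the 35 tested mRNAs, 31 had their highest porthos polysome value in replicate 2 and 28 their lowest in replicate 3. With GFP dsRNA, 34 of 35 had their highest polysome value in replicate 1 and 32 their lowest in replicate 3. The large-subunit mRNAs moved with them, with sums of 62307, 72563 and 61020 CPM on porthos polysomes and 75781, 66817 and 57515 CPM on GFP polysomes. Each count of polysome changes was therefore also taken without each of these libraries.

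The first comparison asked whether depletion of porthos changed the levels of these mRNAs in the lysate. None of the 35 passed the test (edgeR quasi-likelihood test, adjusted p under 0.05, adjusted over all 9024 genes tested), where 0.997% of all tested genes were called higher and 0.72% lower, and DESeq2 also called 0. At an unadjusted p under 0.05 there were 7, all of them above 0, where 655 of the 9024 genes were above 0 and 595 below. The median log2 change was 0.13, beside 0.00 over all genes tested, and 29 of 35 values were above 0. The 3 porthos libraries lay above all 3 GFP libraries for 14 members, below them for 0, and overlapped them for 21, where 12.9% of all tested genes lay wholly above and 12% wholly below.

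Head proteins were among the members nearest to the threshold. RpS19b had 76.6, 69.5 and 75.6 CPM in porthos input, against 52.2, 55.1 and 65.8 CPM in GFP input, with a log2 change of 0.36 ± 0.10 (error as SE, adjusted p = 0.0755 in edgeR). Each porthos library was above every GFP library. RpS16, a head protein whose tail reaches the tRNA, had 712, 760.0 and 815 CPM in porthos input, against 635, 629 and 578 CPM in GFP input. Its log2 change of 0.31 ± 0.11 did not pass (edgeR adjusted p = 0.171), though the groups did not overlap. Of 15 tested head members the median log2 change was 0.18, and of 20 body members it was 0.09. RpS4, a body protein, had 1328, 1382 and 1377 CPM in porthos input against 1140.0, 1158 and 1072 CPM in GFP input (log2 change 0.28 ± 0.10, not called). For RpS25 and RpS15, both head proteins, the log2 changes were 0.21 ± 0.10 and 0.20 ± 0.09, neither called. The members below 0 were sta (-0.18 ± 0.11), RpS14b (-0.16 ± 0.13), RpS9 (-0.16 ± 0.11), RpS27A (-0.12 ± 0.08), RpS2 (-0.04 ± 0.11) and RpS24 (-0.01 ± 0.10), and none of these passed the test.

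These input calls depend on which libraries share the estimate of spread. Fitted on the 6 input libraries alone, edgeR called 11 members higher, among them RpS4, RpS16, RpS19b and RpS20, and 1 lower (sta), with 360 genes higher and 331 lower in all. With all groups in the fit, leaving out polysome GFP replicate 1 gave 2 members higher, with RpS19b among them, and leaving out polysome GFP replicate 3 gave 2, with RpS16 among them. Those fits called 108 and 98 genes higher in all.

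**Figure D3:**
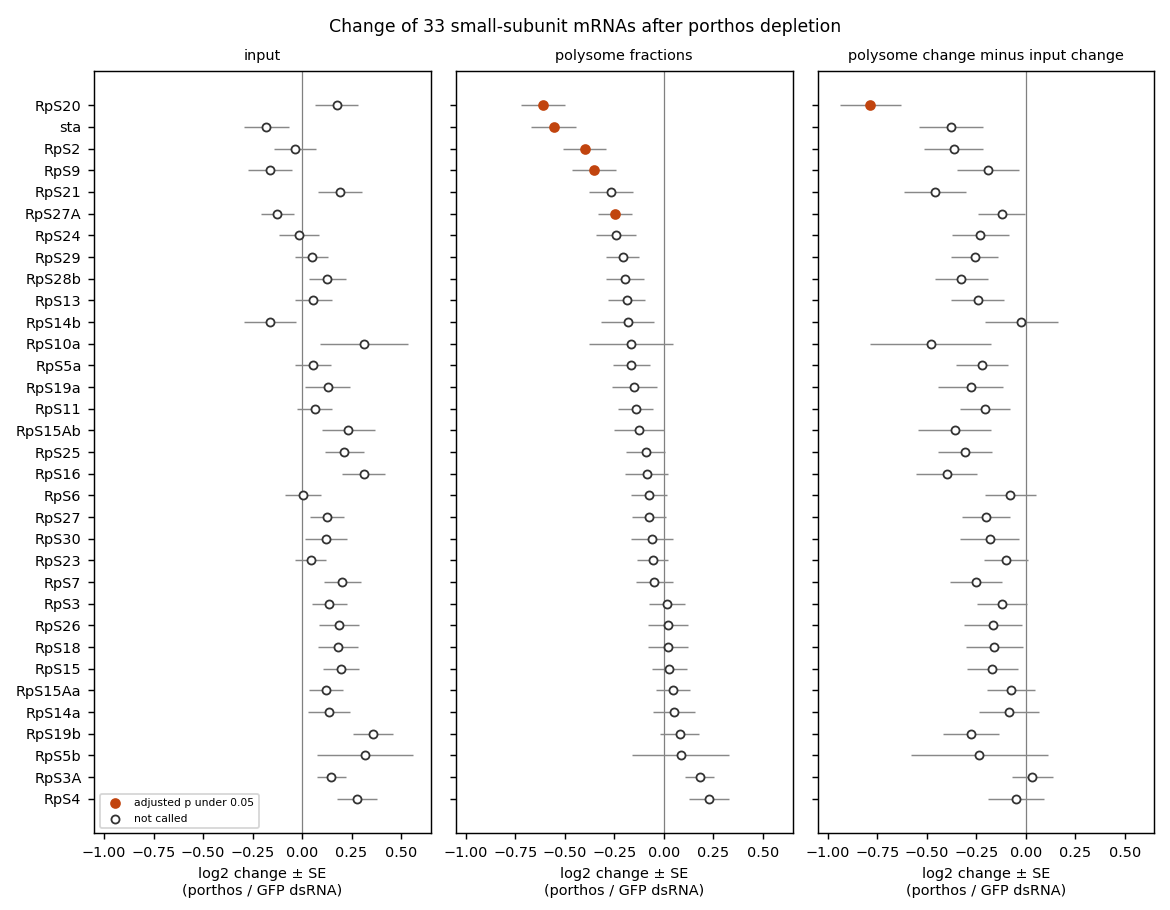
Log2 change ± SE of 33 tested mRNAs, porthos over GFP dsRNA, in input (left), on polysomes (middle) and the polysome change minus the input change (right), ordered by the polysome change; filled points have an adjusted p under 0.05 (edgeR). In input 27 points are above 0, on polysomes 23 are below 0 and 5 are filled, and in the right panel 32 are below 0 and RpS20 is filled.

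The second comparison asked which of these mRNAs changed on polysomes. Of 35 members, 5 were lower with porthos dsRNA (RpS20, sta, RpS2, RpS9 and RpS27A) and 0 were higher, where edgeR called 7.14% of all tested genes lower and 11.2% higher. At an unadjusted p under 0.05 there were 8 below 0 and 2 above 0, where 1308 of the 9024 genes were below 0 and 1558 above. DESeq2 called RpS2, RpS20, RpS27A, RpS29 and sta. The median log2 change was -0.09, beside 0.00 over all genes tested, and 24 of 35 were below 0. The porthos libraries lay wholly below the GFP libraries for 1 member (RpS20) and wholly above for 1 (RpS3A), where 13.4% of all tested genes lay wholly below and 16.2% wholly above.

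Among the head proteins, RpS20 changed most. RpS20 (uS10; FBgn0019936, chromosome 3R, 20822181 to 20823356, plus strand, dm6) is a head protein that neighbours RpS3. Its mRNA had 229, 278 and 189.9 CPM on porthos polysomes, against 408, 367 and 289 CPM on GFP polysomes. The groups did not overlap, although the highest porthos library, replicate 2, lay close below the lowest GFP library, replicate 3. The log2 change was -0.61 ± 0.11 (edgeR adjusted p = 0.000534), a fold of 0.655. In input the same mRNA had 299, 305 and 291 CPM with porthos dsRNA, against 271, 269.6 and 253 CPM with GFP dsRNA. All 3 porthos input libraries were thus above the GFP ones, with a log2 change of 0.17 ± 0.11 that did not pass the test. The gene CG17272 overlaps its exons on the opposite strand over 44 nt.

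RpS27A (FBgn0003942, chromosome 2L, 10408352 to 10410456, plus strand), the other head member called, had 1924, 2118 and 1746 CPM on porthos polysomes against 2573, 2229 and 2067 CPM on GFP polysomes. Porthos replicate 2 lay above GFP replicate 3, so the groups overlapped, and the log2 change was -0.25 ± 0.08 (edgeR adjusted p = 0.0444). In input it had 1929.7, 2028 and 1770.4 CPM with porthos dsRNA and 1984, 2123 and 2139 CPM with GFP dsRNA. RpS29 had 1054, 1248 and 947 CPM on porthos polysomes against 1337, 1274 and 1142 CPM on GFP polysomes. Its groups also overlapped, and its log2 change of -0.21 ± 0.08 passed in DESeq2 but not in edgeR (edgeR adjusted p = 0.0862).

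Among the body proteins, 3 were lower. sta (uS2; FBgn0003517, chromosome X, 1481797 to 1483413, minus strand), whose yeast relative Rps0 is needed late in maturing the small subunit, had 599, 776 and 516 CPM on porthos polysomes against 1057, 950.2 and 774 CPM on GFP polysomes. The groups overlapped barely, by porthos replicate 2 and GFP replicate 3, and the log2 change was -0.56 ± 0.11 (edgeR adjusted p = 0.00168). In input sta had 1009, 1061 and 1077 CPM with porthos dsRNA and 1255, 1242 and 1068 CPM with GFP dsRNA, so those groups overlapped too.

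RpS2 (uS5; FBgn0004867, chromosome 2L, 9896265 to 9897552, minus strand), a protein of the mRNA entry channel, had 676, 817 and 601 CPM on porthos polysomes against 1071, 933 and 761 CPM on GFP polysomes. The log2 change was -0.40 ± 0.11 (edgeR adjusted p = 0.0112), with porthos replicate 2 above GFP replicate 3. RpS9 (uS4; FBgn0010408, chromosome 3L, 9509793 to 9511531, minus strand), which also lines the entry channel, had 523, 693 and 446 CPM against 783, 687 and 652 CPM on GFP polysomes. Its log2 change was -0.35 ± 0.11 (edgeR adjusted p = 0.0294), and porthos replicate 2 lay above GFP replicates 2 and 3. An antisense RNA gene, asRNA:CR45874, which has no identifier in the count files, overlaps the RpS9 exons over 512 nt. In input, RpS2 had 1344, 1426 and 1247 CPM with porthos dsRNA and 1364, 1477 and 1278 CPM with GFP dsRNA, and the groups overlapped.

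The largest values above 0 on polysomes were those of RpS4 and RpS3A, both body proteins. RpS3A (eS1), which was singled out after its values were seen, had 2418, 2409.7 and 2378 CPM on porthos polysomes against 2243, 2080.4 and 2033 CPM on GFP polysomes. Its porthos libraries were all above the GFP ones, and its log2 change of 0.18 ± 0.07 did not pass (edgeR adjusted p = 0.0876). RpS4 had 1345, 1683 and 1231 CPM against 1368, 1244 and 1024 CPM on GFP polysomes, an overlap of the groups (log2 change 0.23 ± 0.10, edgeR adjusted p = 0.113). RpS3 (0.02 ± 0.09) and RpS6, the target of S6 kinase (-0.07 ± 0.09), were near 0. The 95% interval of the log2 change was -0.16 to 0.19 for RpS3 and -0.25 to 0.10 for RpS6.

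**Figure D4:**
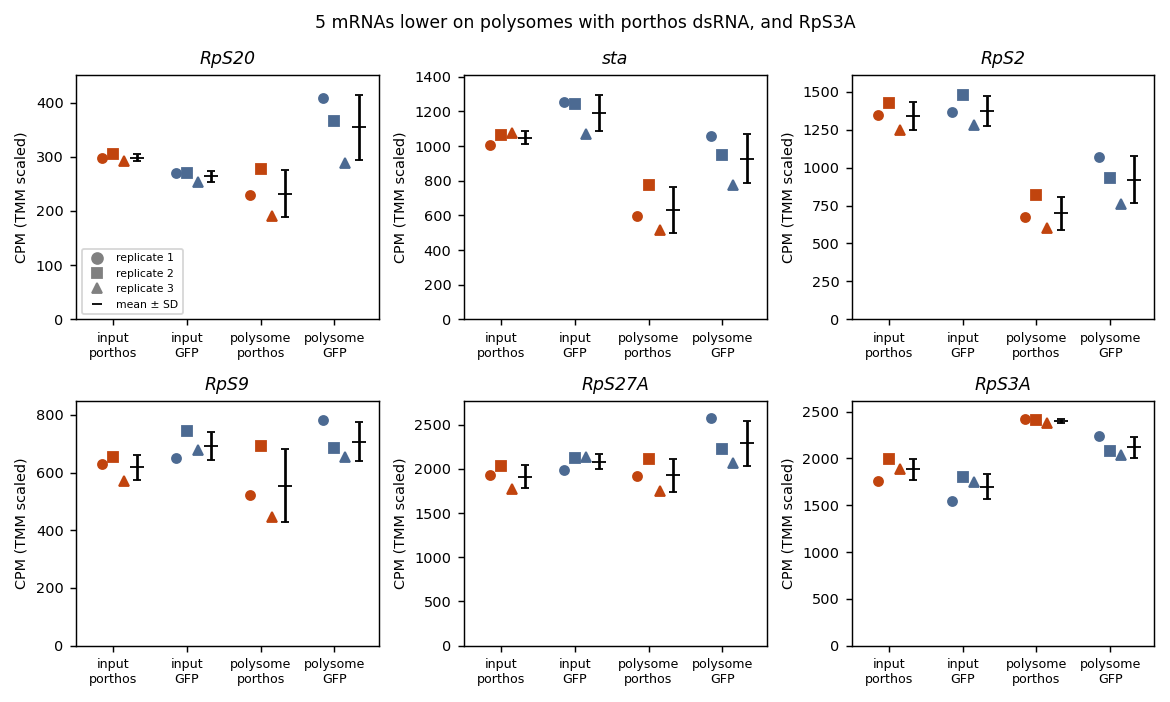
Level in each library (TMM-scaled CPM; markers are replicates 1 to 3, black bars mean ± SD, n = 3) of the 5 mRNAs called lower on polysomes with porthos dsRNA, and of RpS3A. For RpS20 the 3 porthos polysome libraries lie below the 3 GFP ones, for sta, RpS2, RpS9 and RpS27A the polysome groups overlap, and for RpS3A the porthos libraries lie above.

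The count of 5 was not stable to the libraries used. It became 2 (RpS20 and sta) without polysome GFP replicate 1, without polysome porthos replicate 1 or without polysome porthos replicate 3, 15 without polysome GFP replicate 3, and 14 without polysome porthos replicate 2. The genes called lower in all moved too, from 644 in the main fit to 308, 408 and 416 where 2 members were called. They were 881 where 15 members were called and 1131 where 14 were. RpS20 and sta were called lower in all 12 fits that left out 1 library, with log2 changes of -0.78 to -0.51 and -0.75 to -0.46. Without polysome GFP replicate 1 the median over members was 0.01 and 17 of 35 were below 0. With the trend over exon length removed from every library, the median was also 0.01 with 16 below 0, RpS27A was no longer called, and 3 members were called higher, RpS3A and RpS19b among them. In that fit edgeR called 935 genes higher and 704 lower in all.

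Because the members moved together from library to library, each was also set against their sum. RpS20 took 0.656, 0.679 and 0.574% of all small-subunit counts on porthos polysomes, against 0.933, 0.952 and 0.868% on GFP polysomes. sta took 1.72, 1.90 and 1.56% on porthos polysomes, against 2.42, 2.47 and 2.33% on GFP polysomes. RpS2 took 1.94, 2.00 and 1.82%, against 2.45, 2.42 and 2.29%. On this measure the groups of all 3 genes lay apart, with a narrower spread than in CPM. RpS9 took 1.51 ± 0.174%, against 1.85 ± 0.101% (SD, n = 3 each). RpS27A took 5.51, 5.17 and 5.28%, against 5.89, 5.79 and 6.21%. These groups also lay apart. RpS4 went the other way, with 3.85, 4.11 and 3.72% on porthos polysomes against 3.13, 3.23 and 3.08% on GFP polysomes. Lying apart was common among members on this measure and not particular to these genes. For example, RpS24 and RpS29 also lay wholly below, and RpS3 and RpS15 wholly above. Some of these shifts were also present in input. RpS27A took 5.14, 5.14 and 4.61% in porthos input, against 5.48, 5.79 and 6.01% in GFP input. The input shares of sta and RpS9 also lay wholly below with porthos dsRNA, and that of RpS4 wholly above. By contrast, the RpS20 share lay wholly above in porthos input, and the input groups of RpS2 overlapped. With libraries scaled to the summed small-subunit counts, a setting chosen after seeing the data, edgeR called RpS20 (-0.53 ± 0.12, adjusted p = 0.00881) and sta lower, where 0.554% of all tested genes were called lower and 4.65% higher.

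The third comparison took the change on polysomes minus the change in input, an interaction term that asks whether polysome occupancy changed beyond the level in the lysate. RpS20 alone passed, with a log2 difference of -0.78 ± 0.16 (95% interval -1.09 to -0.48; edgeR adjusted p = 0.0465), where 0.0222% of all tested genes were called lower and 0.0776% higher. Its mRNA was lower on porthos polysomes and had a higher mean in porthos input. The call was lost in 10 of 12 fits that left out 1 library, in which the adjusted p was 0.0741 to 0.174, and was kept without polysome GFP replicate 3 (5 members called) and without polysome porthos replicate 2 (6 members). The difference itself stayed between -0.95 and -0.68 in all 12 fits. The fits that kept the call gave 49 and 182 genes lower in all, against 2 in the main fit. With same-numbered libraries of a treatment taken as 1 lysate, edgeR called RpS20 (adjusted p = 0.003) and also RpS21 (-0.46, adjusted p = 0.0415). That fit called 175 genes higher and 52 lower in all.

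The other members shared the sign without passing. In all, 34 of 35 differences were below 0, and the median was -0.22, beside 0.00 over all genes tested. At an unadjusted p under 0.05 there were 8, all below 0, where 485 of the 9024 genes were below 0 and 867 above. Without polysome GFP replicate 1 the median was -0.11 with 31 of 35 below 0, and without polysome GFP replicate 3 it was -0.33 with 35 below 0. Those with the smallest p after RpS20 were RpS21 (-0.46 ± 0.16), a body protein, RpS16 (-0.40 ± 0.15), RpS2 (-0.36 ± 0.15), RpS28b (-0.33 ± 0.14) and sta (-0.38 ± 0.16), with edgeR adjusted p between 0.16 and 0.268. The exception in sign was RpS3A, at 0.03 ± 0.10. The large-subunit mRNAs, which are not members, had 45 of 48 below 0 with a median of -0.17. Over all genes the difference was higher in longer genes (Spearman rho 0.26 over 8818 genes), and the members are short. The 3636 other genes within the members' range of 535 to 1864 nt had a median of -0.07. With the trend over exon length removed from every library, 26 of 35 members were below 0 with a median of -0.09, and RpS20 had -0.54 ± 0.13 and did not pass (edgeR adjusted p = 0.0788).

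The last comparison was of polysome with input levels within each treatment, relative to the average mRNA. With porthos dsRNA 3 members were higher on polysomes and 5 lower, where 23.7% of all tested genes were called higher and 24.1% lower. With GFP dsRNA 9 were higher and 3 lower, where 26.5% were called higher and 28.9% lower. Their median log2 ratio was -0.05 with porthos dsRNA and 0.15 with GFP dsRNA, beside 0.01 over all genes in both treatments. The porthos median was 0.05 without polysome porthos replicate 3 and 0.02 without input porthos replicate 2, and the GFP median was 0.04 without polysome GFP replicate 1 and 0.29 without polysome GFP replicate 3. The polysome libraries lay wholly above input for 3 members and wholly below for 5 with porthos dsRNA, where 25.6% and 26.4% of all tested genes did so. With GFP dsRNA they did so for 8 and for 3, where 31.3% and 33.1% of all genes did.

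Members differed widely in this ratio. RpS15Ab was the highest, at 64.2 ± 7.57 CPM on polysomes and 37.6 ± 2.33 CPM in input with porthos dsRNA (SD, n = 3 each), a log2 ratio of 0.77 ± 0.13. With GFP dsRNA its log2 ratio was 1.13 ± 0.13. RpS19b followed with 0.47 ± 0.10 with porthos dsRNA and 0.74 ± 0.10 with GFP dsRNA, and each of these 4 ratios passed the test. RpS10a had 0.26 ± 0.21 with porthos dsRNA, not called, and 0.74 ± 0.22 with GFP dsRNA, called higher. These values depend on the scale: with the trend over exon length removed, the GFP ratios were 0.43 for RpS15Ab, 0.0058 for RpS19b (edgeR adjusted p = 0.966) and -0.033 for RpS10a, and neither porthos call held (0.25 for RpS15Ab and -0.068 for RpS19b). At the other end stood RpS2, RpS29 and sta, lower on polysomes in both treatments. RpS2 had a log2 ratio of -0.94 ± 0.11 with porthos dsRNA and -0.58 ± 0.11 with GFP dsRNA. RpS29 had -0.83 ± 0.08 and -0.57 ± 0.08, and sta had -0.74 ± 0.11 and -0.36 ± 0.11. The call of sta with GFP dsRNA was lost in DESeq2 (adjusted p = 0.0533), with scaling by library size alone (-0.23, edgeR adjusted p = 0.0787), and without input GFP replicate 1 (-0.30), input GFP replicate 2 (-0.29) or polysome GFP replicate 3 (-0.20). RpS27, a zinc-binding body protein, was called lower with porthos dsRNA (-0.27 ± 0.09) and not with GFP dsRNA (-0.07 ± 0.09), and the test of that difference did not pass (edgeR adjusted p = 0.449).

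RpS20 was the member called in opposite directions, at -0.36 ± 0.11 with porthos dsRNA (edgeR adjusted p = 0.00891) and 0.42 ± 0.11 with GFP dsRNA (edgeR adjusted p = 0.00206). Its 3 polysome libraries lay below all 3 input libraries with porthos dsRNA and above all 3 with GFP dsRNA. The porthos call was lost without polysome porthos replicate 3 (-0.24, edgeR adjusted p = 0.0682), without input porthos replicate 2 (-0.31, edgeR adjusted p = 0.0552) and with scaling to the summed small-subunit counts (-0.29, edgeR adjusted p = 0.0596). The sign with GFP dsRNA turned with the scale, since the log2 ratio was -0.39 ± 0.09 with the trend over exon length removed, where that with porthos dsRNA was -0.93 ± 0.09.

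**Figure D5:**
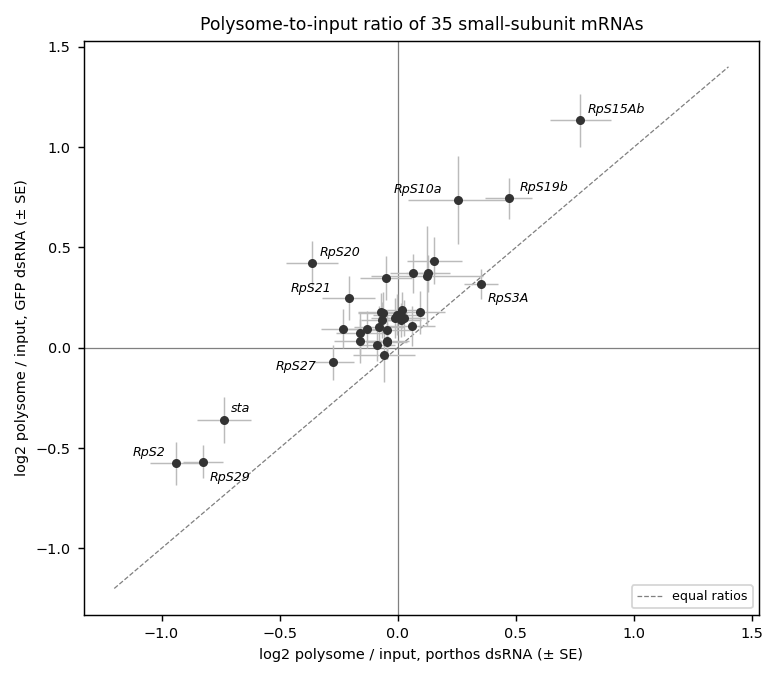
Log2 ratio of polysome to input for the 35 tested mRNAs (± SE) with porthos dsRNA (horizontal) and with GFP dsRNA (vertical); the dashed line marks equal ratios. All points but RpS3A lie above the line, RpS20 lies left of 0 and above 0, and RpS2, RpS29 and sta lie at the lower left.

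Over all 8818 genes with a known exon length, shorter genes had a higher polysome-to-input ratio (Spearman rho -0.63 with porthos dsRNA and -0.66 with GFP dsRNA). Among the 35 members the same rho was -0.01 and -0.25, given as a description of genes that share their libraries. Other genes within the members' length range had a median log2 ratio of 0.31 with porthos dsRNA and 0.38 with GFP dsRNA, so the members lay below genes of their length in both. With the trend over length removed, edgeR called 0 members higher and 27 lower with porthos dsRNA, and 1 higher and 26 lower with GFP dsRNA. In those fits it called 1339 genes higher and 1290 lower in all with porthos dsRNA, and 1768 higher and 1862 lower with GFP dsRNA. The counts also moved with single libraries, to 22 higher with GFP dsRNA without polysome GFP replicate 3, and with porthos dsRNA to 11 lower without polysome porthos replicate 2 and to 3 lower without polysome porthos replicate 3 or without input porthos replicate 2. In all, the first of these fits called 2451 genes higher, against 2395 in the main fit. The other fits called 2062, 2248 and 1802 genes lower, in that order, against 2175 in the main fit.

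Features of the transcripts were set beside the porthos changes. Over the 35 members, Spearman's rho of the input change was -0.37 with the mean log2 CPM over all 12 libraries, which is not scaled for length. Spearman's rho of the polysome change was 0.13 with coding length, -0.08 with 5′ UTR length and 0.14 with 3′ UTR length. For the polysome change minus the input change, rho was 0.26 with coding length, -0.21 with 5′ UTR length and 0.46 with the same mean log2 CPM. These describe genes that share libraries and depth.

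Other genes of the pathway stood beside these changes. Rack1, a scaffold protein bound to the head of the small subunit, had 707, 896 and 608 CPM on porthos polysomes against 1114, 1015 and 900.4 CPM on GFP polysomes. The groups lay apart, barely, between porthos replicate 2 and GFP replicate 3. Its log2 change was -0.45 ± 0.10 (edgeR adjusted p = 0.00384). In input Rack1 had 846, 827 and 734 CPM with porthos dsRNA against 976, 995 and 924 CPM with GFP dsRNA, apart again, and its log2 change of -0.27 ± 0.10 did not pass (edgeR adjusted p = 0.224).

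Factors that mature the small subunit went the other way on polysomes. Of 13 tested, 9 were higher with porthos dsRNA and 0 lower, with a median log2 change of 0.36, where 11.2% of all tested genes were called higher and 7.14% lower. They included Tsr1 (0.54 ± 0.09), which holds late precursors of the subunit, CG2972, the fly relative of the nuclease Nob1 (0.52 ± 0.10), and U3-55K, a protein of the U3 snoRNP (0.46 ± 0.09). On polysomes 1 of the 13 lay below 0. In input 0 of these 13 passed in edgeR, with 2 at an unadjusted p under 0.05. Of the input changes 11 lay above 0, with a median of 0.13. In the polysome change minus the input change 0 of 13 passed, where 0.0776% of all tested genes were called higher. Of these differences 10 lay above 0, with a median of 0.28. Over all genes the polysome change was higher in longer genes (Spearman rho 0.23). The part of length in the values of these factors was not tested. Of 19 factors of the preinitiation complex, 1 was higher on polysomes (eIF5, 0.21 ± 0.07) and 2 were lower (eIF3f1, -0.26 ± 0.09, and eIF1A, -0.21 ± 0.07). Of 48 large-subunit mRNAs, 1 was higher (RpL22-like) and 1 lower (RpL39) on polysomes, and 3 were higher in input (RpL29, 0.43 ± 0.09, RpL41, 0.59 ± 0.12, and RpL18, 0.43 ± 0.11).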

How the data were processed

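Poly(A) RNA libraries of S2 cells, 3 for each combination of input or polysome RNA with porthos or GFP dsRNA, were grouped by their labels. The labels do not call replicates separate cultures. The p-values therefore measure only how far these samples spread, and that spread may be technical. The authors deposited whole-number read counts per FlyBase gene. HISAT2 2.1.0, featureCounts 1.4.6 and build dm6 are named in the submitters' processing notes. What annotation release and strand setting were used, and how multi-mapping reads were treated, is not given in the sources used here. Symbols, coordinates (counted from 1) and exon lengths are from the Ensembl annotation BDGP6.54 of the same assembly, which named 16647 of 17023 identifiers.

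From the deposited counts, TMM-scaled CPM and 1 quasi-likelihood fit over all 12 libraries, with a term per group, were computed in edgeR 4.0.16 (R 4.3.3) after filterByExpr, which left 9024 genes. Calls are at a Benjamini-Hochberg adjusted p under 0.05 over all genes tested. Standard errors were derived from each log2 change and its F statistic. The scripts were tested on simulated data. DESeq2 1.42.0, other scalings, no filter, removal of the trend over exon length, blocks by replicate number and leaving out each library were alternatives. Named members were those called in a porthos comparison, the 6 with the smallest p in each, the 3 highest and 3 lowest polysome-to-input ratios with GFP dsRNA, the 4 highest and 4 lowest levels, duplicated pairs, and members with known roles. Of other lists, at most 3 genes by p were named. Members and lists were chosen with earlier results of these data known. Correlations of deviations between same-numbered porthos and GFP libraries ran from -0.02 to 0.09, so the numbers were not taken to pair them. Between same-numbered input and polysome libraries they were 0.03 to 0.06 with porthos dsRNA and 0.07 to 0.14 with GFP dsRNA. The labels do not link these either, so the main fit left them unpaired and a block by lysate was an alternative. Values of 2 tested members are not reported here, though both stay in the counts and medians.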

Additional observations from a re-analysis of the deposited data

Results flagged for a closer look

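RpS20 was the member whose porthos change differed between polysomes and input by the interaction test. Its log2 change was -0.61 on polysomes and 0.17 in input, a difference of -0.78 ± 0.16 (edgeR adjusted p = 0.0465). The call was kept in 2 of 12 fits that left out 1 library. It was lost with TMM without ribosomal protein genes (edgeR adjusted p = 0.0603) and with the trend over exon length removed (edgeR adjusted p = 0.0788). Scaling to the summed small-subunit counts also lost it (edgeR adjusted p = 0.345). DESeq2, RLE scaling, scaling by library size, no filter and both blocks kept it. The 3 porthos libraries lay below the 3 GFP libraries on polysomes and above them in input. The gene CG17272 overlaps its exons over 44 nt from the opposite strand, and the part of that overlap in the result was not tested.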

How the results depend on the processing

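Counts of called members moved by over 1.5 times under these settings. Without the filter on low counts there were 4 higher in input, 1 higher and 10 lower on polysomes, 5 lower in the difference of changes and 15 higher for polysome against input with GFP dsRNA. In all, that setting called 157 genes higher in input, and 981 higher and 850 lower on polysomes. It called 94 genes lower in the difference and 2444 higher for polysome against input with GFP dsRNA. With the trend over exon length removed there were 1 higher in input, 3 higher on polysomes, 0 in the difference, and, for polysome against input, 0 higher and 27 lower with porthos dsRNA and 1 higher and 26 lower with GFP dsRNA. That setting called 121 genes higher in input and 935 higher on polysomes in all. In that setting the polysome-to-input log2 ratio changed sign for RpS10a (-0.30 with porthos and -0.033 with GFP dsRNA), RpS19b (-0.068 with porthos dsRNA) and RpS20 (-0.39 with GFP dsRNA). Scaling by library size gave 22 higher for polysome against input with GFP dsRNA. There it called 3024 genes higher in all, and the median of all genes moved to 0.14. TMM without ribosomal protein genes gave 0 in the difference. Fits of only the groups compared gave 11 higher and 1 lower in input and 2 lower on polysomes. They called 360 genes higher and 331 lower in input, and 294 lower on polysomes, in all. Scaling to the summed small-subunit counts, chosen after seeing the data, gave 2 lower on polysomes, 0 in the difference and 3 lower for polysome against input with porthos dsRNA. In all it called 50 genes lower on polysomes, 0 in the difference and 1129 lower for polysome against input with porthos dsRNA. The replicate block gave 1 higher in input (RpS19b) and kept RpS20 in the difference at -0.79. It called 109 genes higher in input and 11 lower in the difference in all. Among the polysome libraries of its own treatment, each input library correlated best with that of its own number. This is a hint from the data, as the labels do not link the numbers. The block by lysate gave 2 in the difference (RpS20 and RpS21), where 52 genes were called lower in all. Leaving out 1 library gave 0 to 2 higher in input, 2 to 15 lower on polysomes, 0 to 6 lower in the difference, 3 to 11 lower with porthos dsRNA and 8 to 22 higher and 2 to 3 lower with GFP dsRNA for polysome against input. Over all genes, those fits called 18 to 138 higher in input, 308 to 1131 lower on polysomes and 0 to 182 lower in the difference. For polysome against input they called 1782 to 2248 genes lower with porthos dsRNA. With GFP dsRNA they called 2141 to 2597 higher and 2230 to 2639 lower. The cause of these shifts was not tested. RLE scaling and DESeq2 moved no count by over 1.5 times. Changes under about 0.2 on the log2 scale were within 2 standard errors for most members, so 3 libraries a group did not resolve them.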
